A study of Mus musculus with 6 samples.

Results

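The Ly6 and Gml genes of mouse chromosome 15 encode small surface proteins that hang on the outer membrane by a glycosylphosphatidylinositol (GPI) lipid anchor. The members were taken by symbol: Ly6a, Ly6c1, Ly6c2, Ly6d, Ly6e, Ly6g, Ly6i, Ly6k, Gml and Gml2, which are 10 of the 21374 genes of the table. They were measured by bulk RNA sequencing in whole distal colon taken beside tumours, with 3 libraries labelled Otud1-/- and 3 labelled wild type. All the mice were C57BL/6 males that carried the same tumour protocol. It began at 6 weeks of age, on day 0, with azoxymethane given into the peritoneum to start colon tumours. There followed 3 cycles, each with 1.5% dextran sulfate sodium for 4 days, an agent harmful to the colon lining, and water for 14 days. The colons, from mice then 18 weeks old, were collected on day 81, so untreated colon is not part of the comparison. The labels do not describe the deleted part of Otud1, nor whether every library had a mouse of its own. Errors and p-values are thus those of the spread among libraries, part of which may be technical.

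Ly6 proteins share a compact fold held by disulfide bonds between cysteines, and they are used above all as markers of cell type and state. Ly6a, known as Sca-1, marks blood stem cells and is switched on in colon epithelium that regenerates after injury. Ly6c1 and Ly6c2 encode the Ly6C antigen of endothelium, monocytes and some lymphocytes, and Ly6g is the standard surface marker of mouse neutrophils. Several members are known to be induced by interferons. The family was chosen with the difference between these labels already known, so the values of the members below are a description and carry no test.

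Values are normalised reads, the reads of a gene divided by a size factor of its library. The libraries held 15300937 to 18193462 reads on genes for the label Otud1-/- and 18002560 to 19406407 for the label wild type. Otud1 itself, a deubiquitinase gene, went against the labels: it had 141, 150 and 208 normalised reads in the libraries labelled Otud1-/-, against 111, 45.1 and 48.9 in those labelled wild type. Its log2 change was 1.37 ± 0.35 (SE; limma, Benjamini-Hochberg adjusted p = 0.0934), and a two-sided exact permutation test gave p = 0.1, which is the lowest value possible with 3 against 3. Directions are given by label for that reason, and each log2 change is Otud1-/- minus wild type by label. The first principal component held 50.2% of the variance and separated the labels. Its values were 67.9, 19.5 and 17.5 under Otud1-/-, against -69.9, -17.1 and -18.0 under wild type. Otud1-/- 1 and wild type 1 lay farthest apart. Epithelial genes such as Epcam (29230 to 33565 normalised reads under Otud1-/-, against 37318 to 42135 under wild type) were abundant in every library, as the labelled tissue would have. Genes were called where the adjusted p over all 21281 tested was under 0.05. By that rule 202 genes were called, 60 higher and 142 lower. The lower ones were 70.3% of the calls, against 60.1% after quantile normalisation and 24.9% with total reads as the scale, where the median log2 change over all genes moved by 0.20.

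The members fall into sequence groups, and those groups bear on how reads can be told apart. In GENCODE vM21 (GRCm38, the build that mm10 names) they lie within 397 kb, on chromosome 15 from base 74762056 to base 75159126. Ly6a, Ly6c1, Ly6c2, Ly6g and Ly6i form a close group, with 77.0% to 97.7% identical bases over their 10 pairs of aligned coding sequences. Those 5 genes matched the other 5 members at 40.6% to 50.1%. Gml and Gml2 matched each other at 86.6%. The first 120 coding bases of the close group, from the GENCODE transcripts, are shown because they display what the genes share. Capitals mark bases that differ from Ly6a in an ungapped alignment counted from the start codon.
Ly6a: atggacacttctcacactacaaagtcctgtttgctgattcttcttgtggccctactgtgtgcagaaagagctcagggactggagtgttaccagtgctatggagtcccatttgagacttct
Ly6c1: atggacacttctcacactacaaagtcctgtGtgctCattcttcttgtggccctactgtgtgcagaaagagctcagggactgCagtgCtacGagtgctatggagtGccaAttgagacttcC
Ly6c2: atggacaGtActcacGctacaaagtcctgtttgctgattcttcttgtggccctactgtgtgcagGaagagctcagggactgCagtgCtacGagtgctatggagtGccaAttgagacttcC
Ly6g: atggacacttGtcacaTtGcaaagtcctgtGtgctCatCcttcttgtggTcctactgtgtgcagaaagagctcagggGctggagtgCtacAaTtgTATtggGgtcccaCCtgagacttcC
Ly6i: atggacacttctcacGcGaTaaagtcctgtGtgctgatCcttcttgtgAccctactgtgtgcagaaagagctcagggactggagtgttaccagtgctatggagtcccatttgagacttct
Ly6i differed from Ly6a at 6 of these 120 bases, Ly6c1 at 8, Ly6c2 at 10 and Ly6g at 18. Ly6c1 and Ly6c2 were identical over 188 coding bases, from base 66 to base 253. Gml and Gml2 were identical over their first 130 coding bases. Their next 90, printed with capitals where Gml2 differs from Gml, held 33 differences.
Gml: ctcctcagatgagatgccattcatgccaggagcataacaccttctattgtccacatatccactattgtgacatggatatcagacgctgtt
Gml2: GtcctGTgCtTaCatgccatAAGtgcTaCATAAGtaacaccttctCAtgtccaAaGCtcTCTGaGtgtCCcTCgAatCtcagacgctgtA

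**Figure D1:**
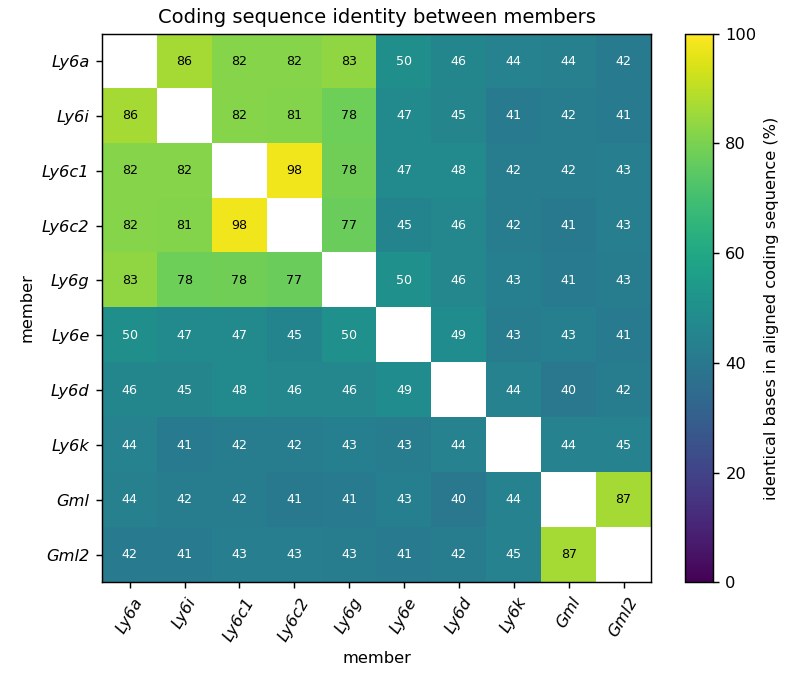
Percentage of identical bases in pairwise alignments of the members' coding sequences, with 1 cell for each pair and the isoforms that match best. Ly6a, Ly6i, Ly6c1, Ly6c2 and Ly6g form a block at 77.0% or more, Gml and Gml2 match at 86.6%, and Ly6d, Ly6e and Ly6k match no other member above 50.1%.

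The share of sequence that cannot be assigned to 1 gene differed widely between members. Cutting each member's transcripts into windows of 50 bases, 32.8% of the windows of Ly6c1 also occurred in other genes, mostly in Ly6c2 (21.5% of the windows of Ly6c1). The share was 19.0% for Ly6a, mostly in Ly6c1, 14.5% for Ly6c2, 4.76% for Ly6i and 0.448% for Ly6g. Ly6d and Ly6e shared no window with another gene. With windows of 100 bases the shares were 10.1% for Ly6c1, 5.81% for Ly6c2, 1.45% for Ly6a, all in Ly6c1, and 0 for Ly6i and Ly6g. Gml shared 18.7% of its 50-base windows with Gml2. Gml2 shared 30.8%, with Gml and, on the opposite strand, with Cyp11b1 (16.4%), the last enzyme of corticosterone synthesis, whose gene overlaps the end of Gml2 by 747 bases. The whole span of Ly6k lies inside Gm17189, a noncoding gene on the opposite strand. Ly6k shared 32.7% of its 50-base windows with Gm17189. With windows of 100 bases the shares were 10.1% for Gml, 19.7% for Gml2 and 18.5% for Ly6k. The sources used here do not give the read length, the treatment of reads with several matches or the strand setting. Reads of Ly6a and Ly6c1, Ly6c1 and Ly6c2, Gml and Gml2, Gml2 and Cyp11b1, and Ly6k and Gm17189 thus could not be told apart with certainty. The same holds for Ly6a, Ly6i and the nearby gene I830127L07Rik, which shared windows of 50 bases but none of 100.

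Most of the family was lower in the libraries labelled Otud1-/-. All 10 members passed the filter on low values. Gml, Gml2, Ly6i, Ly6c1, Ly6g and Ly6a were called as lower, 6 of 10, and none was called as higher (limma, adjusted p under 0.05). Over all genes tested, 0.667% were called as lower and 0.949% in either direction, and since the family was chosen on this contrast, nothing is read from the difference between those shares. The labels did not overlap, with the lower values under Otud1-/-, for 7 members, the 6 called and Ly6c2, as for 13.3% of all genes. The median log2 change of the members was -1.54, beside 0.02 over all genes. The calls depended on the libraries and on the model: without wild type 2 or wild type 3 none of the 6 was called, and without wild type 1 only Gml, Ly6c1 and Ly6g were. Without any 1 library labelled Otud1-/-, and without Otud1-/- 1 and wild type 1 together, all 6 were called. With all libraries kept, limma without trend and robust called none of the 6, and a replicate block left Ly6c1 and Ly6g. The direction of the 6 was the same under all 15 alternative settings, the smallest change being -0.63 for Ly6a after quantile normalisation. That outcome was largely set in advance. Dropping the filter, limma without trend and robust, and a replicate block leave the fitted change itself as it was. Omitting libraries cannot reverse a gene whose labels do not overlap. These are values of whole tissue, in which fewer cells of a type and less RNA per cell cannot be told apart.

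**Figure D2:**
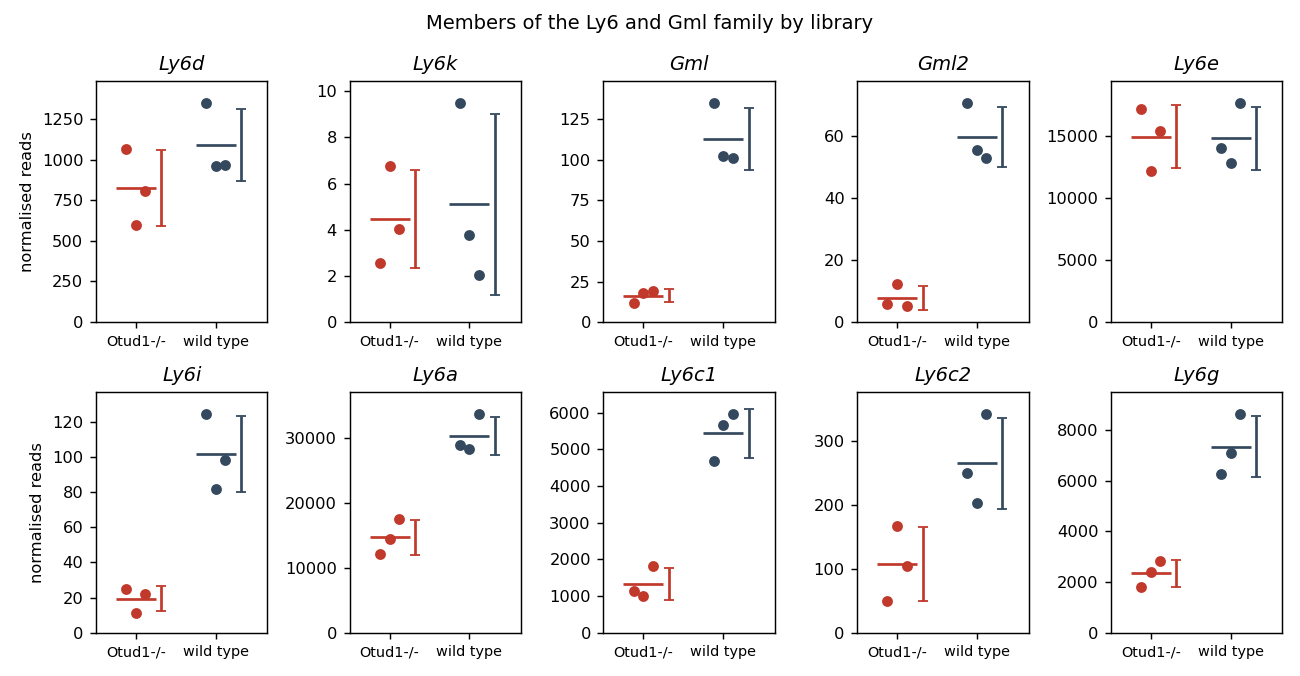
Normalised reads of the 10 members, 1 panel each on a linear axis from 0, with a point per library, a line at the mean and a bar of 1 SD to its right (n = 3 libraries per label). In Gml, Gml2, Ly6i, Ly6a, Ly6c1, Ly6c2 and Ly6g every library labelled Otud1-/- lies below every library labelled wild type, while Ly6d, Ly6k and Ly6e overlap.

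Ly6a was the most abundant member per exon length in every library. Ly6a (ENSMUSG00000075602.10, bases 74994877 to 74998031, minus strand) had 12127, 14490 and 17473 normalised reads in the libraries labelled Otud1-/-, against 28939, 28316 and 33792 in those labelled wild type. The lowest wild type library lay well above the highest Otud1-/- library, and the spread within either label was smaller than the gap. The means were 14697 ± 2679 and 30349 ± 2998 (SD, n = 3 each), a log2 change of -1.06 ± 0.16 (SE). This was the smallest change among the 6 called genes, and it was -0.63 after quantile normalisation, where the call was lost. Genes of the regenerating colon epithelium, the state in which Ly6a is known as a marker, did not share the direction as a list. Of 9 measured genes 4 had positive and 5 negative changes, with a median of -0.24. Their summed level was 20278 to 26496 normalised reads under Otud1-/- and 23346 to 24063 under wild type. limma called none of them, 1 had an unadjusted p under 0.05 (Anxa3, -0.34), and edgeR and DESeq2 called 0.

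Per exon length Ly6c1 was lower than Ly6a in every library, and Ly6c2 was lower still. Ly6c1 (ENSMUSG00000079018.10, bases 75044018 to 75048830, minus strand) had 1151, 1012 and 1821 normalised reads in the libraries labelled Otud1-/-, against 4687, 5656 and 5969 in those labelled wild type. Each library labelled Otud1-/- lay far below each library labelled wild type. The log2 change was -2.07 ± 0.21 (SE), and the mean was 24.4% of the wild type mean. Ly6c2 (ENSMUSG00000022584.14, bases 75108158 to 75111970, minus strand) had 50.3, 166 and 105 normalised reads, against 250, 202 and 343. The labels did not overlap, but the nearest libraries were close and Ly6c2 was not called (log2 change -1.42 ± 0.42 SE). Its change was -0.96 without Otud1-/- 1 and -1.82 without Otud1-/- 2. The ratio of Ly6c1 to Ly6c2 within a library was 22.9, 6.08 and 17.3 under Otud1-/-, and 18.8, 28.0 and 17.4 under wild type, so it did not separate the labels.

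Markers of the cells that carry Ly6C did not move in a single direction. Endothelial genes, which Ly6c1 accompanies in vessels, summed to 2993 to 4530 normalised reads under Otud1-/- and 3002 to 3527 under wild type. Of 12 such genes 9 had positive changes, with a median of 0.26. No call was made by limma, 3 had an unadjusted p under 0.05 (all higher, among them Cldn5 at 0.79), and edgeR and DESeq2 called 0. Monocyte and macrophage genes, which Ly6c2 accompanies, had negative changes in 11 of 13, with a median of -0.96. By limma none was called, 10 had an unadjusted p under 0.05, all lower, edgeR called 0 and DESeq2 called 8 lower. They summed to 23416 to 34838 normalised reads against 58978 to 66593. Most of that sum came from Plac8, a gene that epithelia also express, with 15304 to 26387 normalised reads against 43223 to 53671. The chemokine receptor Ccr2 of inflammatory monocytes had 74.2, 75.4 and 85.8 normalised reads, against 149, 194 and 143 (log2 change -1.02 ± 0.21 SE; limma, adjusted p = 0.0601). The part of these cells in the values of Ly6c1 and Ly6c2 was not tested.

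Ly6g was far more abundant than most neutrophil genes. Ly6g (ENSMUSG00000022582.4, bases 75155240 to 75159126, plus strand) had 1804, 2392 and 2845 normalised reads in the libraries labelled Otud1-/-, against 6276, 7096 and 8638 in those labelled wild type. The labels were separated by more than the spread within either, with a log2 change of -1.66 ± 0.18 (SE). Per kilobase of exon Ly6g had a mean of 2491 normalised reads under Otud1-/- and 7788 under wild type. The 12 other neutrophil genes lay between 1.50 and 2503 under Otud1-/-, and between 0.257 and 2173 under wild type, on the same scale. The highest of them was Cd177, a Ly6-like neutrophil surface protein gene, which was level with Ly6g under Otud1-/- and below it under wild type. The receptor gene Csf3r, which neutrophils need to mature, stood at 24.9 and 42.7 and the chemokine receptor gene Cxcr2 at 7.42 and 5.93, per kilobase, under Otud1-/- and wild type.

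The neutrophil genes did not follow Ly6g as a list. Of the 12, 8 had positive and 4 negative changes, with a median of 0.12. Their sums overlapped, at 6304 to 10106 normalised reads under Otud1-/- and 6907 to 10033 under wild type. Most of that sum came from Cd177, with 5455 to 9006 normalised reads against 4930 to 7361. None of the 12 was called by limma, although 4 had an unadjusted p under 0.05, 2 in each direction. edgeR called 0 and DESeq2 called 2, both lower. S100a8, a subunit of calprotectin, had 401, 144 and 242 normalised reads, against 616, 1159 and 685 (log2 change -1.70 ± 0.42 SE; limma, adjusted p = 0.111). Csf3r had a change of -0.77 ± 0.21 (SE; limma, adjusted p = 0.109). In the other direction, the granule protein gene Ngp had 10.2, 4.50 and 7.06 normalised reads, against 0, 0.940 and 0 (limma, adjusted p = 0.0833). Retnlg, a resistin-like gene of neutrophils, had 128, 66.4 and 87.8, against 22.2, 60.2 and 52.0 (1.12 ± 0.41 SE; limma, adjusted p = 0.187). The S100a8 partner subunit S100a9 had 557, 331 and 402 normalised reads, against 155, 627 and 469, so the labels overlapped. The part of neutrophils in the values of Ly6g was not tested.

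Gml, Gml2 and Ly6i, the called members with few reads, had the largest changes of the family. Gml (ENSMUSG00000068349.12, bases 74813452 to 74818815, minus strand) encodes a GPI-anchored Ly6-like protein whose human counterpart was described as a p53-induced gene. It had 11.9, 18.0 and 19.2 normalised reads in the libraries labelled Otud1-/-, against 135, 103 and 101 in those labelled wild type. Behind these values stood 14, 16 and 19 reads, against 128, 109 and 99. The log2 change was -2.73 ± 0.30 (SE), and every library labelled wild type had at least 99 reads where none labelled Otud1-/- had more than 19. Gml2 (ENSMUSG00000068600.10, bases 74819071 to 74834871, plus strand) had 5.97, 12.4 and 5.05 normalised reads, against 70.7, 55.5 and 53.0. Its log2 change was -2.87 ± 0.40 (SE), from 7, 11 and 5 reads against 67, 59 and 52. The paralogues run away from each other, with 255 bases between their annotated starts. Their ratio within a library was steady under wild type, with Gml 1.89 ± 0.0346 times Gml2 (SD, n = 3), and scattered under Otud1-/-, at 2.42 ± 1.23, where both rest on few reads.

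Ly6i (ENSMUSG00000022586.11, bases 74979534 to 74983430, minus strand) had 24.7, 11.2 and 22.2 normalised reads in the libraries labelled Otud1-/-, against 124, 81.8 and 97.9 in those labelled wild type. That is 29, 10 and 22 reads against 118, 87 and 96, without overlap, and a log2 change of -2.38 ± 0.35 (SE). Ly6a, which had far more reads, held 2.68% of the 50-base windows of Ly6i. The part of Ly6a reads in the values of Ly6i was not tested. The libraries did not rank alike for all of these genes. Under Otud1-/-, Ly6a, Ly6g, Ly6c2 and Gml were lowest in library 1, Ly6i and Ly6c1 in library 2 and Gml2 in library 3. Pearson correlations of log2 values between the 6 called members lay between 0.871 and 0.995 over the 6 libraries, which the shared difference between labels largely sets.

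Ly6e did not follow its neighbours. Ly6e (ENSMUSG00000022587.14, bases 74955051 to 74959905, plus strand) encodes a widely expressed member that restricts entry of several viruses and also serves as a receptor in the mouse placenta. It had 17222, 12197 and 15438 normalised reads in the libraries labelled Otud1-/-, against 14037, 12818 and 17693 in those labelled wild type. The labels overlapped fully, with a log2 change of 0.01 ± 0.17 (SE), which was 0.22 after scaling to total reads, 0.30 after quantile normalisation and -0.10 without Otud1-/- 1. The called members can be set against it within each library, where the scaling has no part. The ratio of Ly6a to Ly6e was 0.704, 1.19 and 1.13 under Otud1-/-, and 2.06, 2.21 and 1.91 under wild type. The ratio of Ly6g to Ly6e was 0.105, 0.196 and 0.184, against 0.447, 0.554 and 0.488. Divided by Ly6e, all 7 members that did not overlap between labels still did not, while Ly6d and Ly6k still overlapped.

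Ly6d and Ly6k were not called either. Ly6d (ENSMUSG00000034634.7, bases 74762056 to 74763620, minus strand) marks B cell precursors and stratified epithelia. It had 1067, 596 and 808 normalised reads in the libraries labelled Otud1-/-, against 1348, 963 and 964 in those labelled wild type. The labels overlapped and the log2 change was -0.43 ± 0.23 (SE). Of the stratified squamous markers, 8 of 10 measured had positive changes, with a median of 0.83 and sums of 393 to 1873 normalised reads against 203 to 671. limma made no call, 1 had an unadjusted p under 0.05 (Krt4, higher), and edgeR and DESeq2 called 0. Trp63 and Krt1 were not analysed here. Ly6k (ENSMUSG00000044678.11, bases 74796874 to 74799986, minus strand), a germ cell gene that mouse sperm need for fertility, had 3, 6 and 4 reads against 9, 4 and 2, and at this depth no difference was detectable.

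**Figure D3:**
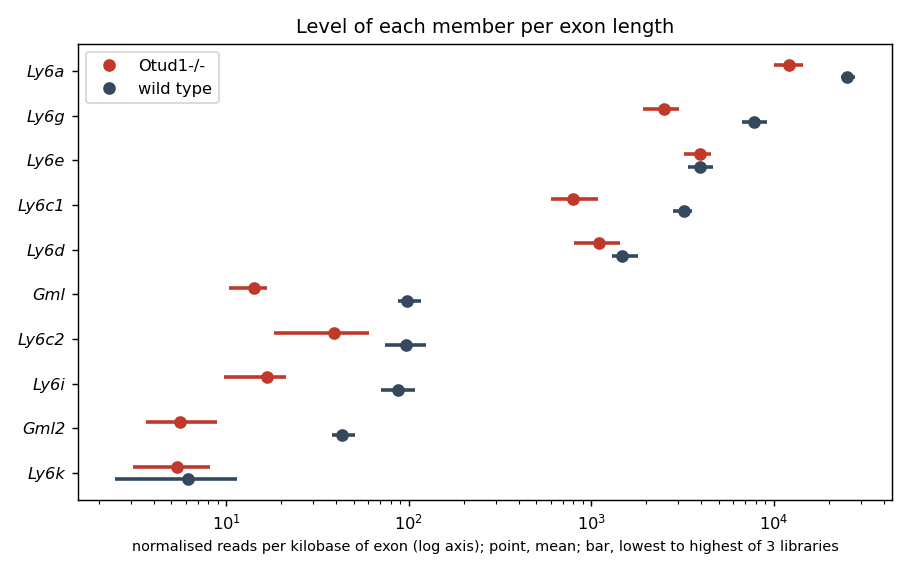
Normalised reads per kilobase of exon for each member on a log axis, with the mean as a point and the lowest to highest of 3 libraries as a bar, Otud1-/- above wild type. The members span from about 5.37 (Ly6k) to 12197 (Ly6a) under Otud1-/- and from 6.15 to 25186 under wild type.

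The order of the levels per exon length differed between the labels. Per kilobase of exon under Otud1-/-, Ly6a had a mean of 12197 normalised reads, Ly6e 3951, Ly6g 2491, Ly6d 1107 and Ly6c1 792. Under wild type the order was Ly6a at 25186, Ly6g at 7788, Ly6e at 3924, Ly6c1 at 3242 and Ly6d at 1467. Per exon length Ly6g thus stood above Ly6e under wild type and below it under Otud1-/-, each time without overlap of their libraries. Ly6d and Ly6c1 overlapped under Otud1-/-, and Ly6e and Ly6c1 under wild type. Exon length here counts all annotated exons, 3784 bases for Ly6e and 942 for Ly6g. In normalised reads without that division, Ly6e was above Ly6g in every library. Per kilobase the remaining members were far lower. Ly6c2, Ly6i and Gml had 39.1, 16.8 and 14.2 under Otud1-/-, and 96.7, 87.7 and 97.9 under wild type, with overlap between neighbours in both. Gml2 and Ly6k had 5.60 and 5.37 under Otud1-/-, against 42.9 and 6.15 under wild type. Summed, the members took 0.180% to 0.236% of the normalised reads of a library under Otud1-/-, against 0.294% to 0.348% under wild type. Ly6e made up 39.5% to 51.5% of that sum under Otud1-/- and 23.2% to 26.2% under wild type.

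Genes around the family did not share a direction. Of 17 other genes of the table within 200 kb of the family, 16 were tested, 6 with positive and 10 with negative changes and a median of -0.24. BC025446, the nearest gene of the table beyond Ly6g, was called as lower. It had 379, 532 and 613 normalised reads in the libraries labelled Otud1-/-, against 1273, 1335 and 1408 in those labelled wild type (log2 change -1.42 ± 0.17 SE; limma, adjusted p = 0.0109). Its adjusted p lay between 6.82e-09 and 0.132 over the alternatives, and the call was lost without wild type 2 (0.0738), without wild type 3 (0.0987) and with limma without trend and robust (0.132). Between Gml2 and Ly6e lies 2010109I03Rik, which RefSeq names Ly6m, with 4977, 23169 and 8636 normalised reads against 15639, 12573 and 14161. Its labels overlapped, and Otud1-/- 2 alone was above every library labelled wild type. Cyp11b1 had at most 1.12 normalised reads under Otud1-/-, against 3.16, 4.70 and 3.06 under wild type (limma, adjusted p = 0.189). I830127L07Rik, between Ly6c2 and Ly6g, had a change of -1.12, Arc -0.54, Slurp1 -0.47 and Gm17189 0.41, none of them called and each with overlapping labels. Lynx1 and Them6, on the far side of Ly6d, had changes of 0.05 and -0.01.

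**Figure D4:**
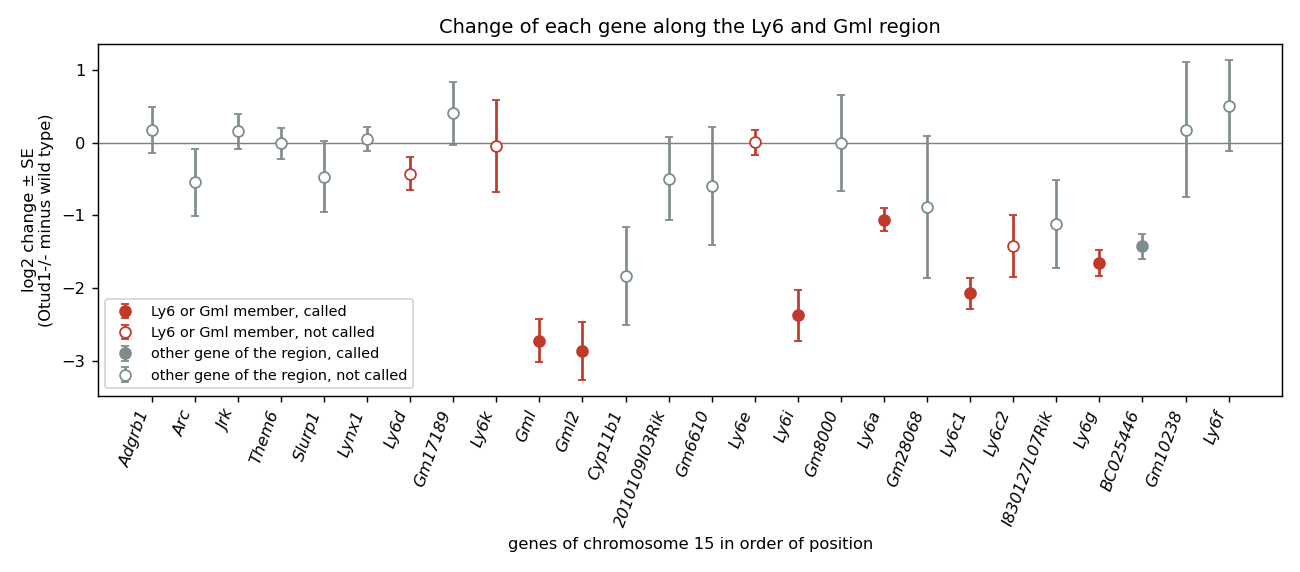
Log2 change (Otud1-/- minus wild type by label) with its SE for the 10 members and the 16 tested genes within 200 kb, in order of position, with filled points for called genes. The called genes are Gml, Gml2, Ly6i, Ly6a, Ly6c1, Ly6g and BC025446, and Ly6e at 0.01 lies between Gml2 and Ly6i.

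The promoters of 3 members, Ly6c1, Ly6c2 and Ly6g, were in the RefSeq table used (GRCm38.p6). They are shown because their sequences are alike. The part of these sequences in the values of the 3 genes was not tested. The 160 bases before each RefSeq start are printed along the gene's own strand, with capitals for TATAAA. Those starts lie 7, 1 and 21 bases from the GENCODE starts of Ly6c1, Ly6c2 and Ly6g used above. The end of the printed Ly6g stretch therefore lies inside its GENCODE span.
Ly6c1 chr15:75048838-75048997, minus strand: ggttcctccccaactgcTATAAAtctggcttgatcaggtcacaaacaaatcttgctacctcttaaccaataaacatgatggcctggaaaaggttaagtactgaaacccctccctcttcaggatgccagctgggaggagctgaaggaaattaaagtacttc
Ly6c2 chr15:75111972-75112131, minus strand: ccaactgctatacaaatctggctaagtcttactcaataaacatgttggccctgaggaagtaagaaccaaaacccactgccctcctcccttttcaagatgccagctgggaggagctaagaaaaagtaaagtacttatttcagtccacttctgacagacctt
Ly6g chr15:75155101-75155260, plus strand: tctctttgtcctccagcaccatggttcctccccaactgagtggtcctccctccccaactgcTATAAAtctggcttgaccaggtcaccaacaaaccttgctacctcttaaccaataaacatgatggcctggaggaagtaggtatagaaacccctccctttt
The full windows run from 250 bases before to 50 after the start. Over their aligned bases Ly6c1 and Ly6g were 82.4% identical (256 aligned), Ly6c2 and Ly6g 80.7% (223), and Ly6c1 and Ly6c2 78.2% (266). The number of aligned bases differed, so these shares do not rank the pairs. The letters TATAAA, searched on both strands, occurred in the windows of Ly6c1 and Ly6g and in 13.6% of all 32851 promoter windows. They began at base -143 from the RefSeq start in Ly6c1 and at base -99 in Ly6g. They were not in the window of Ly6c2. The letters TTCNNNGAA, a core of the gamma-activated site bound by STAT factors, and GAAA with GAAA after 2 free bases, a core of the interferon-stimulated response element, were in none of the 3 windows. They occurred in 8.30% and 3.44% of all windows.

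Among interferon response genes, those of the gamma response were mostly lower, and those of the type I response were not. Of 18 gamma response genes 17 had negative changes, with a median of -0.71, and sums of 11950 to 17876 normalised reads under Otud1-/- against 22745 to 25662 under wild type. The tryptophan-degrading enzyme gene Ido1 was the only one called (log2 change -2.95 ± 0.26 SE; limma, adjusted p = 0.00284), while edgeR called 1 and DESeq2 called 9, all lower. The transcription factor gene Irf1 had 2230, 3521 and 2803 normalised reads, against 4728, 5036 and 4769 (-0.79 ± 0.16 SE; limma, adjusted p = 0.0558). The type I response genes had 7 positive and 9 negative changes of 16, with a median of -0.01 and sums of 17511 to 37645 against 26427 to 32603. There was no call (limma), 2 had an unadjusted p under 0.05, 1 in each direction, and edgeR and DESeq2 called 0. The difference between the response lists was not tested, nor was their part in the values of the members.

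**Figure D5:**
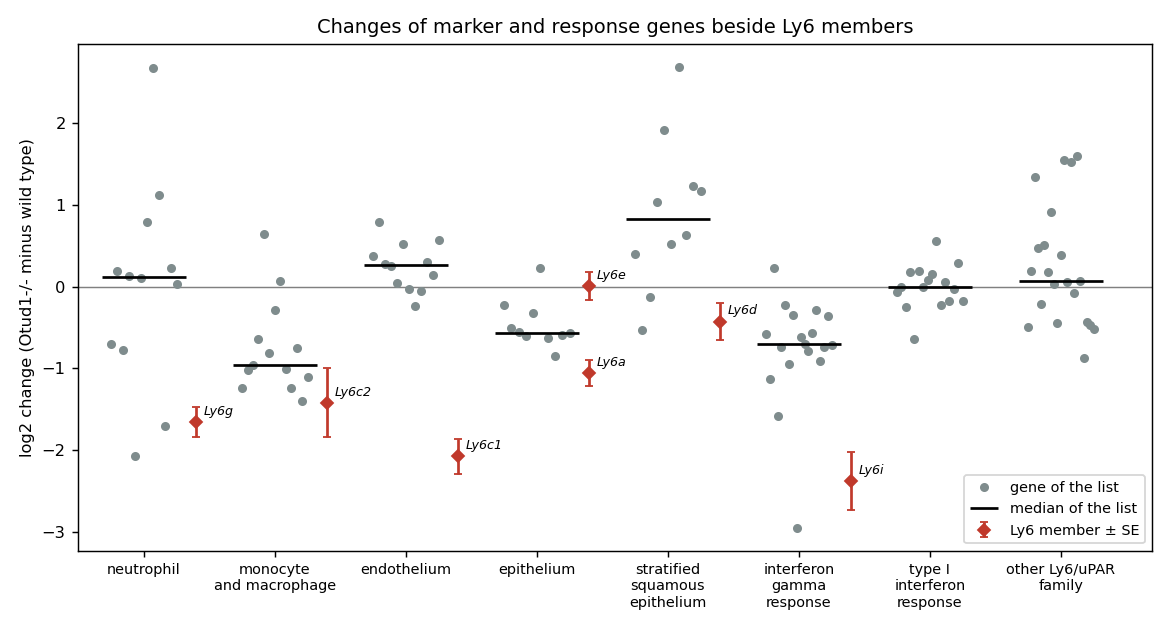
Log2 change of each gene of 8 lists (grey points), the list median (black line) and Ly6 members set beside 6 of the lists (red diamonds with SE). Ly6g at -1.66 and Ly6c1 at -2.07 lie below the medians of the neutrophil (0.12) and endothelial (0.26) genes, and Ly6i at -2.38 lies below the median of the gamma response genes (-0.71).

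Other Ly6 and urokinase receptor (uPAR) family genes, which share the fold, showed no common direction. Of 35 listed, 21 were measured and tested, 13 with positive and 8 with negative changes and a median of 0.06. None was called by limma, 7 had an unadjusted p under 0.05 (4 higher, 3 lower), edgeR called 0 and DESeq2 called 2. The complement inhibitor gene Cd59a had 137, 220 and 295 normalised reads, against 83.3, 87.5 and 73.4 (log2 change 1.34 ± 0.28 SE; limma, adjusted p = 0.0601). Without Otud1-/- 1, limma called it. Lypd8, which encodes a colon epithelial protein that holds flagellated bacteria away from the mucosa, was the most abundant by reads, with 112728, 168729 and 158659 against 240559, 244586 and 315995 (-0.87 ± 0.20 SE; limma, adjusted p = 0.0751). Ly6h, a brain-expressed member, had 23.0, 24.8 and 12.1 normalised reads, against 5.27, 7.52 and 5.10 (1.55 ± 0.44 SE; limma, adjusted p = 0.115). Spaca4, known from sperm, had 214, 321 and 305, against 400, 399 and 386 (-0.52 ± 0.18 SE; limma, adjusted p = 0.162). The low genes Lypd6 and Lypd1 had changes of 1.60 and 1.53 (limma, adjusted p = 0.202 and 0.204).

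No gene of the machinery that attaches the anchor was called. All 28 listed genes of GPI synthesis and attachment were tested, 19 with negative and 9 with positive changes and a median of -0.09. Their sums did not overlap, at 15181 to 15946 normalised reads under Otud1-/- against 16169 to 18124 under wild type. The labels did not overlap for 7 genes with the lower values under Otud1-/-, as for 13.3% of all genes, and for 1 with the higher. limma called none, 4 had an unadjusted p under 0.05, all lower, and edgeR and DESeq2 called 0. Over all genes tested limma called 0.949%, so the lack of calls among 28 genes says little. Piga, which starts the synthesis, had 597, 702 and 747 normalised reads, against 890, 936 and 894 (log2 change -0.42 ± 0.12 SE; limma, adjusted p = 0.117). Pigt, a subunit of the enzyme that joins anchor and protein, changed by -0.29 (limma, adjusted p = 0.218).

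Markers of the epithelium and of smooth muscle were measured in the same libraries. Of 10 epithelial markers 9 had negative changes, with a median of -0.57 and sums of 233566 to 364666 normalised reads under Otud1-/- against 370544 to 430884 under wild type. None passed in limma, 7 had an unadjusted p under 0.05, all lower, edgeR called 0 and DESeq2 called 3. Of 10 smooth muscle genes 3 were called as higher (Myl9, Synm and Myh11), beside 0.282% of all genes tested, and the median of the 10 was 1.15, with sums of 59406 to 122774 against 36076 to 39596. All 10 had an unadjusted p under 0.05, but edgeR called 0 of them, while DESeq2 called 9, all higher. The part of this shift in the values of the members was not tested.

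The genes whose profile over the 6 libraries was most like a member's were taken by Pearson correlation of log2 values. They came from 11584 genes with a mean of at least 100. Of them Adgrf1 and Msmo1 were called, where 0.949% of all genes tested were. The genes were picked for profiles like those of members, so nothing is read from that. For Ly6a they were Bag1 (0.998), Ap3s1-ps1 (0.996) and Kdm4c (0.995), and Bag1 changed by only -0.23. For Ly6c1 they were Adgrf1, Wars and Cope, and Adgrf1, an adhesion receptor gene, was itself called as lower (-2.12), with 285, 238 and 382 normalised reads against 1158, 1266 and 1456. For Ly6g they were Kdm4c, the sterol synthesis gene Msmo1 and Ssr4, of which Msmo1 was called as lower (-0.76). For Ly6c2 they were the epithelial genes Lad1 and St14, and Coro1b. For Ly6e they were Aimp1 (0.999) and the ribosomal protein genes Rpl11 and Rpl6, and for Ly6d they were Prcp, Sirt6 and Card6. The 6 libraries share the difference between labels, and how many genes reach correlations this high was not counted. The correlations are given as a description.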

How the data were processed

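The authors deposited a normalised signal per gene for 6 libraries. In each column 100% of values were whole multiples of 1 step (within 0.001 of a read), so whole reads could be recovered. Per the submitters' processing notes the reads were placed on mm10, while the sources used here do not give aligner, counter, read length or strand setting. IDs were paired with GENCODE vM21 (21336 of 21374 matched). The test was limma 3.58.1 (R 4.3.3) with trend and robust on log2(signal + 1), with genotype as the only term, for genes of at least 1 in at least 3 libraries. It was two-sided with Benjamini-Hochberg adjustment, and fold changes on this scale understate those of low genes. Members and lists were chosen with earlier results of these data known. Other named genes were the 6 smallest p of the relatives and of the neighbours, up to 4 of each list, and the 3 closest profiles per member with a mean of at least 100. Cd177, Cxcr2, S100a9, Epcam, 2010109I03Rik, Lynx1 and Them6 are named outside that rule, chosen after their values were seen. Alternatives were another pseudocount, no filter, other scaling, limma without trend and robust, a replicate block, edgeR 4.0.16 and DESeq2 1.42.0 on recovered reads, and the omission of libraries. The omission of Otud1-/- 1 and wild type 1 together was chosen after seeing the data. The tests were tried on simulated data. Coding sequences were aligned with Biopython 1.88. Without molecular identifiers, read numbers are not numbers of molecules.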

Additional observations from a re-analysis of the deposited data

How the results depend on the processing

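The number of genes called over the whole table, 202 with the deposited scaling, was 118 with a pseudocount of 0.1, 413 after scaling to total reads, 62 with edgeR, 1413 with DESeq2, 394 without Otud1-/- 1 and wild type 1 together, and 10 to 340 without single libraries. limma without trend and robust called 0 genes (3499 at an unadjusted p under 0.05), and so 0 members and 0 neighbours. With the replicate number as a block, 18 genes and 2 members (Ly6c1 and Ly6g) were called. The labels do not say whether the numbers pair the samples. Deviations of same-numbered libraries from their label means correlated at -0.42, -0.16 and -0.17, which cannot decide this with 3 libraries per label. Of the 6 called members, 5 were called with edgeR and 5 after quantile normalisation, in both without Ly6a, and 0 to 6 without single libraries, while DESeq2 called Ly6c2 as well. Of the relatives, 1 (Cd59a) was called after scaling to total reads and without Otud1-/- 1 and wild type 1 together, 2 (Cd59a and Lypd8) with DESeq2, and 0 to 1 without single libraries. Of the neighbours, 0 to 1 were called without single libraries. Otud1 passed with DESeq2 (log2 change 1.29, adjusted p = 0.0142) and without Otud1-/- 1 and wild type 1 together (1.89, limma, adjusted p = 0.00495), and its adjusted p was 0.00495 to 0.258 over all settings. Without single libraries its change was 1.14 to 1.78. Of 149 member changes under the alternatives, 145 moved by less than 1 SD between libraries, 4 moved by more, and none of the called ones changed sign. The 145 include settings that cannot move a change: no filter, limma without trend and robust, and the replicate block. The count is therefore no measure of stability. edgeR's filter left out Ly6k. The cause of these differences between settings was not tested. For Ly6k, with 2 to 9 reads in a library, depth limits what can be seen.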

Other observations

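Lymphocyte genes were described by no comparison above. Of 10 B and plasma cell genes, 9 had negative changes, with a median of -0.82 and overlapping sums of 21261 to 32078 normalised reads under the label Otud1-/- and 31356 to 49921 under wild type. None was called (limma), 3 had an unadjusted p under 0.05, all lower, edgeR called 0 and DESeq2 called 1. The plasma cell factor gene Xbp1 had a log2 change of -0.63 ± 0.16 (SE; limma, adjusted p = 0.0910). All 10 T cell genes had negative changes, with a median of -0.41 and sums of 561 to 1142 normalised reads under Otud1-/- and 736 to 2162 under wild type. limma called none, 1 had an unadjusted p under 0.05 (Cd8b1, -0.87), and edgeR and DESeq2 called 0.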
